A study of Mus musculus with 12 samples.

Results

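Drd1, Drd2, Adora2a, Ppp1r1b, Pde10a, Adcy5, Gpr6, Rarb and Six3 are genes of the dopamine-responsive projection neurons that make up most of the striatum, and their mRNA was followed here in the amygdala. They were chosen by symbol, through the Ensembl identifier of each gene in GENCODE M21, and are 9 of the 47729 genes with deposited counts. All 9 passed the filter on low counts. The study took bilateral amygdalae from 12 female mice of the inbred strain C57/BL6, made 1 stranded mRNA library per mouse and sequenced all of them in a single run. Before that, at 9 weeks of age, the mice were tested on the elevated plus maze (EPM), at 10 weeks in the light/dark box (LD) and at 11 weeks in the three-chamber social interaction test (SIT). No mouse carried an engineered allele or received a drug according to the labels and methods used here.

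The labels place 3 mice in the "less anxious" group (mice 3, 7 and 12), 4 in the "anxious" group (mice 1, 4, 8 and 11) and 4 in the "more anxious" group (mice 2, 6, 9 and 10). Mouse 5 has no group, since the study set it aside as an outlier of its expression data, and it enters the values and correlations over 12 mice but no comparison of groups. The study cut these groups from the second principal component (PC2) of the same expression data, so a difference in expression between them is not independent of how they were formed. The 7 behavior measures do not come from the expression data, and each mouse has all of them except mouse 4, which has no value for the 3-min measure of the SIT. Group names and behavior did not match in every mouse. The more anxious mouse 6 had the highest time in the light (46.6%), distance in the light (41.9%) and time on the open arms (29.2%) of the 12 mice. Total estimated counts per mouse ran from 31745630 to 45142355. The dissection was a block of tissue defined by atlas position, and in such bulk samples fewer cells of a type and less RNA per cell cannot be told apart.

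In the striatum, medium spiny projection neurons fall into a direct-pathway class, which carries the dopamine receptor Drd1, and an indirect-pathway class, which carries Drd2 together with the adenosine receptor Adora2a and the orphan receptor Gpr6. Drd1 raises and Drd2 lowers the formation of cyclic AMP, which the adenylyl cyclase Adcy5 makes and the phosphodiesterase Pde10a breaks down. Ppp1r1b encodes DARPP-32, an inhibitor of protein phosphatase that integrates these signals, while Rarb, a retinoic acid receptor, and Six3, a homeobox factor, act in the development of these neurons. The central nucleus and the intercalated cells of the amygdala are GABAergic and share part of this gene set with the neighbouring striatum, whereas the basolateral nuclei are dominated by cortex-like excitatory neurons.

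The genes lie on different chromosomes or far apart (coordinates from GENCODE M21 on GRCm38, each span covering the exons and introns of the whole gene). Drd1 is at chr13:54051183-54055705 on the minus strand, Drd2 at chr9:49340627-49408177 on the plus strand, Adora2a at chr10:75316877-75334784 on the plus strand and Ppp1r1b at chr11:98348404-98357796 on the plus strand. Pde10a is at chr17:8525372-8986648 (plus), Adcy5 at chr16:35154877-35305738 (plus), Gpr6 at chr10:41069977-41072285 (minus), Rarb at chr14:16430839-16819156 (minus) and Six3 at chr17:85613608-85629302 (plus). Exons of Rarb overlap exons of Top2b on the other strand, a gene with 44557 counts over the 12 mice, and exons of Six3 overlap those of the antisense gene Six3os1, with 3509 counts. Exons of Ppp1r1b overlap 1700003D09Rik, with 318 counts. The sources used here do not say whether the counting used strand, so part of the counts of Rarb and Six3 is less certain than that of the other genes.

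RefSeq (GRCm38.p6) promoter windows, from 250 bases before to 50 bases after a start site, were found for 7 of the 9 genes and gave 9 windows, while Adora2a and Ppp1r1b had no entry. The windows were searched on both strands for the cyclic AMP response element TGACGTCA, the GC box GGGCGG, and a direct repeat with a spacer of 5 bases (DR5) of hexamers that could each read AGGTCA, its variant GGGTCA, the alternative AGTTCA, or else the form GGTTCA, which is the kind of element that retinoic acid receptors bind. The cyclic AMP element was in the Gpr6 window, from base -78 to base -71 relative to the start site, and in 1.79% of all 32817 promoter windows. The DR5 repeat was in the Rarb window, from base -53 to base -37, and in 0.0975% of all windows. The GC box was in 6 of the 9 windows, those of Drd1, Drd2, Adcy5 and Pde10a, and in 35.6% of all windows. The windows of Gpr6, Rarb and Drd2 are shown because each holds another of these elements, with the matched bases in capitals and read 5′ to 3′ along the gene's strand. The Rarb window starts inside the GENCODE span of the gene, at an internal start site. A match describes the letters only, since no binding was measured.
Gpr6 (chr10:41072241-41072540, minus strand): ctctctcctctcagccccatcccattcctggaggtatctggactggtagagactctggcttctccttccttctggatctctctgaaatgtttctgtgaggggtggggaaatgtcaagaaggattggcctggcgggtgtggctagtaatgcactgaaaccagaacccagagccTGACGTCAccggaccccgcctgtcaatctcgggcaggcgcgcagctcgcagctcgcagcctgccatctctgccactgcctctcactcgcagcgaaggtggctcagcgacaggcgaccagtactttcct
Rarb (chr14:16575427-16575726, minus strand): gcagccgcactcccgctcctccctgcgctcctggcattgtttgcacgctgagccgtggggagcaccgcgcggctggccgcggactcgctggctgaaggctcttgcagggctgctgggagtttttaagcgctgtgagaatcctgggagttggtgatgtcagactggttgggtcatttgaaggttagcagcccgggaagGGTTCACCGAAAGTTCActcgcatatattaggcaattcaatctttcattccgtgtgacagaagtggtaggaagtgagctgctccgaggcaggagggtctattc
Drd2 (chr9:49340153-49340452, plus strand): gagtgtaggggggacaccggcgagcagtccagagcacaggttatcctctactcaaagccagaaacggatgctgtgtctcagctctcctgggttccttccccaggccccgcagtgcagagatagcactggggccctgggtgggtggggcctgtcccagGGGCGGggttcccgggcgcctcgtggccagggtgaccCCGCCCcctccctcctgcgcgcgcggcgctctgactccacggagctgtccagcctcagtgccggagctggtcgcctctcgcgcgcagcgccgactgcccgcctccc

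Levels of the 9 genes differed widely. Per kilobase of exon, Ppp1r1b had the highest mean at 40.0 ± 21.2 CPM per kb (CPM, the count of a gene relative to the total count of the mouse after scaling with edgeR's TMM factors) (SD, n = 12) and Adcy5 followed at 27.3 ± 5.13, with overlapping intervals of mean ± SD. Adcy5 was apart from the next gene, Pde10a, at 5.76 ± 1.93 CPM per kb. Below it came Drd1 (5.70 ± 2.21), Adora2a (4.65 ± 4.22), Gpr6 (2.16 ± 1.25), Rarb (2.01 ± 0.779), Drd2 (1.80 ± 1.44) and Six3 (1.75 ± 0.762), and no neighbours in this part of the order were apart by that measure. All other levels below are CPM, which serve to compare 1 gene between mice and not different genes.

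The dopamine receptor Drd1 was at 18, 29.5 and 37.8 CPM in the less anxious mice 3, 7 and 12. It was at 18.9, 13.4, 13.8 and 10.6 CPM in the anxious mice 1, 4, 8 and 11, and at 12.6, 24.1, 18.8 and 24.8 CPM in the more anxious mice 2, 6, 9 and 10. Mice 7 and 12 were above all mice of the other groups, while mouse 3 lay within the range of both. Mouse 5 had 25.9 CPM. Drd2 was at 2.95, 7.51 and 14.5 CPM in less anxious, 5.72, 1.16, 1.80 and 1.66 CPM in anxious and 2.15, 5.43, 4.42 and 2.92 CPM in more anxious mice, in the same order of mice, and at 4.86 CPM in mouse 5. The highest and the lowest mouse differed 12.6-fold in Drd2 and 3.56-fold in Drd1. Again only mice 7 and 12 stood above every anxious and more anxious mouse.

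Adora2a, which in the striatum marks the indirect pathway, varied most. It was at 8.15, 24.4 and 47.6 CPM in less anxious, 15.3, 1.68, 1.42 and 4.02 CPM in anxious and 4.55, 14.2, 19.5 and 11.3 CPM in more anxious mice, and at 18.9 CPM in mouse 5. The range from mouse 8 (52 counts) to mouse 12 (1827 counts) was 33.6-fold, and the groups overlapped through mouse 3. Gpr6, a receptor of the same neurons, was at 2.20, 6.38 and 9.86 CPM in less anxious, 2.85, 2.21, 3.98 and 2.72 CPM in anxious and 3.30, 3.60, 4.17 and 3.20 CPM in more anxious mice. Mouse 3 and mouse 5, at 1.85 CPM, were the lowest of the 12 for Gpr6. Mouse 5 thus had the fourth highest level of Adora2a and the lowest of Gpr6.

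Among the signaling genes, Ppp1r1b was at 76, 180 and 256 CPM in less anxious, 109, 60.4, 72.6 and 59.6 CPM in anxious and 46.7, 135, 134 and 173 CPM in more anxious mice. Pde10a was at 67.0, 86.3 and 144 CPM in less anxious, 90.8, 55.8, 58.7 and 58.5 CPM in anxious and 67.2, 62.0, 75.7 and 61.6 CPM in more anxious mice. Its second highest level was in the anxious mouse 1. Adcy5 was at 178, 259 and 281 CPM in less anxious, 207, 179, 163 and 166 CPM in anxious and 175, 193, 188 and 179 CPM in more anxious mice. Adcy5 varied least of the 9 genes, with 1.72-fold between the extremes, compared with 5.47-fold for Ppp1r1b and 2.58-fold for Pde10a. In mouse 5 the levels of Ppp1r1b, Pde10a and Adcy5 were 104, 60.9 and 182 CPM.

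Of the transcription factors, Rarb was at 10.4, 11.2 and 21.7 CPM in less anxious, 8.40, 7.44, 6.54 and 8.70 CPM in anxious and 7.16, 8.96, 10.3 and 12.5 CPM in more anxious mice, with 13.6 CPM in mouse 5. Rarb was the 1 gene of the 9 whose values did not overlap between less anxious and anxious mice, a pattern that 2.48% of all genes tested had in this direction. Six3 was at 6.29, 13.1 and 18.7 CPM in less anxious, 13.2, 7.18, 5.92 and 5.50 CPM in anxious and 7.0, 13.8, 8.03 and 7.68 CPM in more anxious mice, with 7.87 CPM in mouse 5. No gene of the 9 was without overlap between less and more anxious mice, compared with 3.92% of all genes in this direction.

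**Figure D1:**
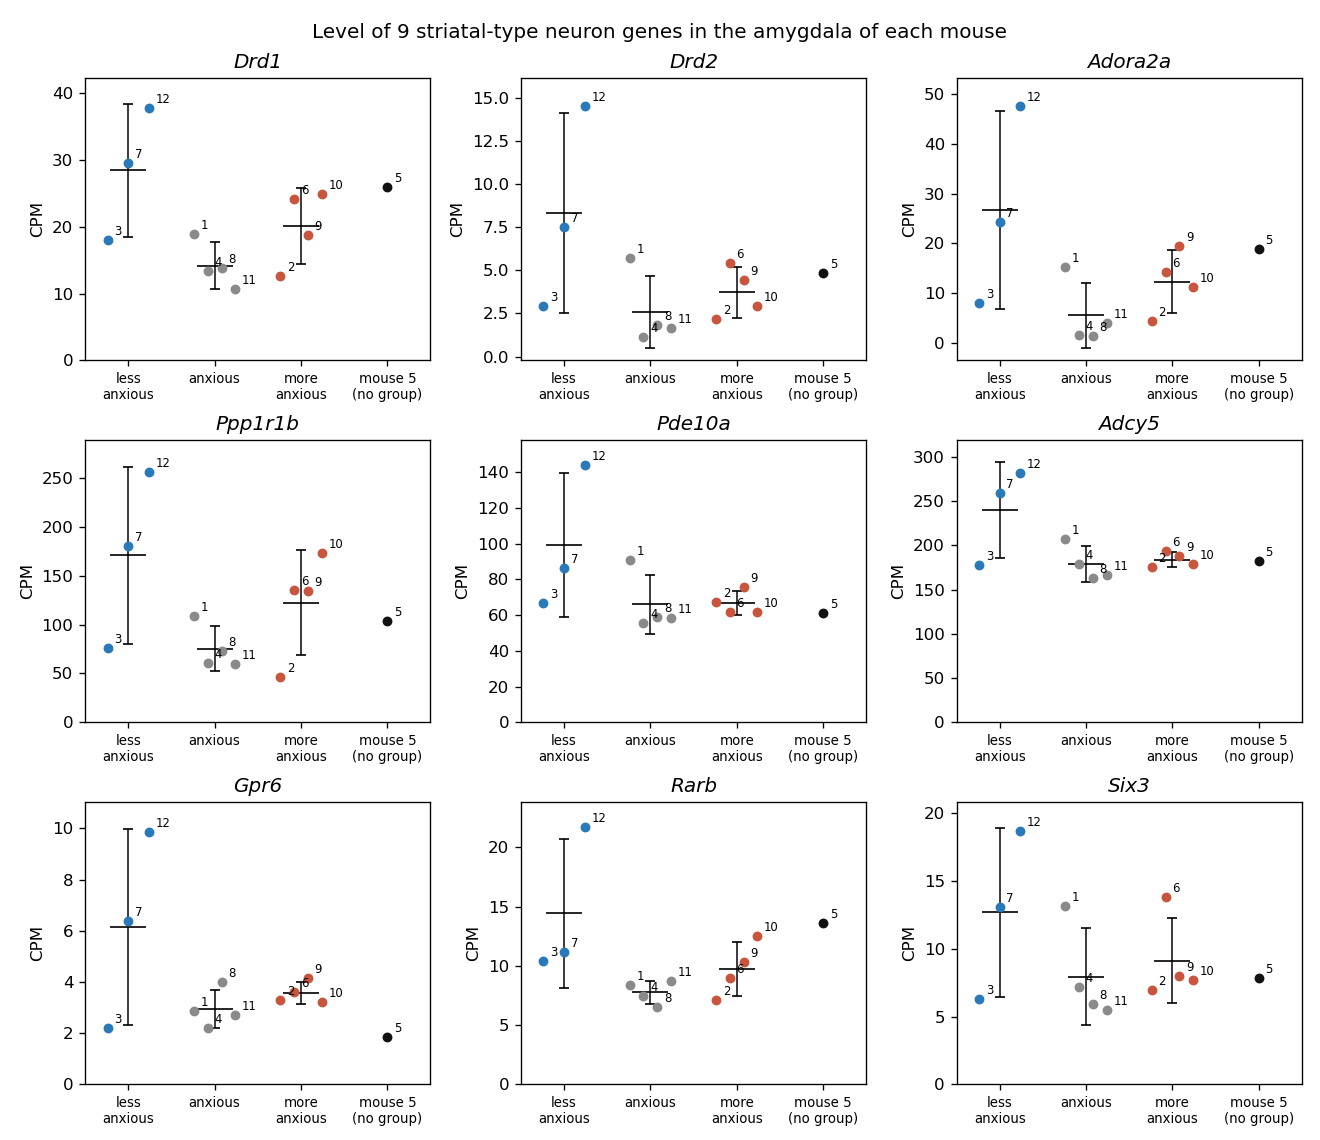
CPM of each gene (vertical axes, from 0 except where an error bar extends below it) in every mouse, numbered and grouped along the horizontal axis, with lines at the group mean and bars of ± 1 SD for 3, 4 and 4 mice. Mouse 12 is the highest point in all 9 panels, and mouse 3 of the same group lies among the anxious and more anxious mice in most.

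Mouse 12 had the highest level of all 9 genes and mouse 7 was in the top 2 for 6 of them. The mean of the 9 standardized log2 CPM values (z scores over 12 mice) was 2.03 in mouse 12, 1.02 in mouse 7 and -0.396 in mouse 3, so the 3 less anxious mice spanned most of the range. Among anxious mice it was 0.28 in mouse 1 but -0.98, -0.885 and -0.914 in mice 4, 8 and 11. Mice 4, 8 and 11 were in the lowest 4 for 7, 8 and 8 of the genes, and so was the more anxious mouse 2 for 7. The spread between mice was large compared with other genes. Among the 15892 genes with a mean of at least 1 CPM, the coefficient of variation of Adora2a (90.6%) exceeded that of 99.3% of genes and that of Drd2 (80.1%) exceeded 99.1%, while Adcy5 (18.8%) exceeded 65.5%. The median gene had 15.1%.

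The comparison across the 3 anxiety groups asked whether any gene differed between them, with the score on the first component (PC1) as a covariate. edgeR's quasi-likelihood test called 0 of the 9 genes at an adjusted p under 0.05, and it called 2 of the 26963 genes tested (0.00742%). The adjusted p of the 9 ran from 0.641 for Adcy5 to 0.929 for Six3. Without adjustment, 4 of the 9 were under 0.05 (Adcy5, Rarb, Drd1 and Gpr6), compared with 6.36% of all genes. DESeq2 with the same model called 187 genes and again 0 of the 9.

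Anxious mice had lower levels than less anxious mice in all 9 genes, compared with 49.3% of all genes, but no difference passed the adjusted test. Adora2a averaged 5.60 ± 6.55 CPM (SD, n = 4) in anxious and 26.7 ± 19.9 CPM (n = 3) in less anxious mice, a log2 fold change of -2.34 ± 0.96 (SE). Drd2 averaged 2.58 ± 2.11 and 8.33 ± 5.83 CPM (log2 fold change -1.69 ± 0.69), and Drd1 14.2 ± 3.43 and 28.4 ± 9.90 CPM (-1.03 ± 0.30). For Ppp1r1b, Gpr6 and Rarb the log2 fold changes were -1.18 ± 0.54, -1.13 ± 0.37 and -0.83 ± 0.24, and for Six3, Pde10a and Adcy5 they were -0.70 ± 0.43, -0.56 ± 0.26 and -0.44 ± 0.14. The edgeR adjusted p was 0.987 for each of the 9, with 0 called and 1 of all genes called (0.00371%). Unadjusted p was under 0.05 for 6 of the 9, compared with 2.25% of all genes in this direction, and for 2 of the 9 without mouse 12. Without that mouse all 9 log2 fold changes were closer to 0 and still below it, at -0.54 for Gpr6, -0.99 for Drd2, -1.72 for Adora2a and -0.21 for Pde10a. DESeq2 called 10 genes and 0 of the 9. The 9 genes varied together between mice, so their counts in 1 direction are not 9 separate observations.

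More anxious mice were also below less anxious mice in all 9 genes (49.5% of all genes), with log2 fold changes from -0.40 ± 0.14 for Adcy5 to -1.15 ± 0.69 for Drd2. The group means were 20.1 ± 5.65 CPM for Drd1, 3.73 ± 1.47 CPM for Drd2 and 12.4 ± 6.24 CPM for Adora2a in the 4 more anxious mice. edgeR called 0 of the 9, at adjusted p from 0.407 to 0.868, and 12 of all genes (0.0445%), while DESeq2 called 304 genes and 0 of the 9. Unadjusted p was under 0.05 for Adcy5 and Gpr6, 2 of the 9, compared with 3.62% of all genes in this direction. Without mouse 12 the log2 fold changes were much smaller in size, between -0.05 for Ppp1r1b, which was at -0.48 with all mice, and -0.49 for Adora2a, which was at -1.06, and Drd2 was at -0.48. The count of genes with an unadjusted p under 0.05 was 0 without mouse 12, 6 without mouse 3 and 1 without any single one of mice 2, 4, 6, 7, 8 and 11.

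Between more anxious and anxious mice the 9 log2 fold changes were all above 0 (50.6% of all genes), from 0.01 ± 0.24 for Pde10a to 1.28 ± 0.92 for Adora2a. The adjusted p from edgeR was at least 0.999 for each, with 0 of the 9 under 0.05 even before adjustment and 0 of all genes called (0.0%), where 1231 genes were under 0.05 before adjustment. DESeq2 called 48 genes and 0 of the 9. Without the anxious mouse 1, 3 of the 9 were under 0.05 before adjustment, and without the more anxious mouse 2, 1 was. The lowest means were thus in the middle group for each of the 9 genes. These comparisons share mice and are not independent of each other.

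**Figure D2:**
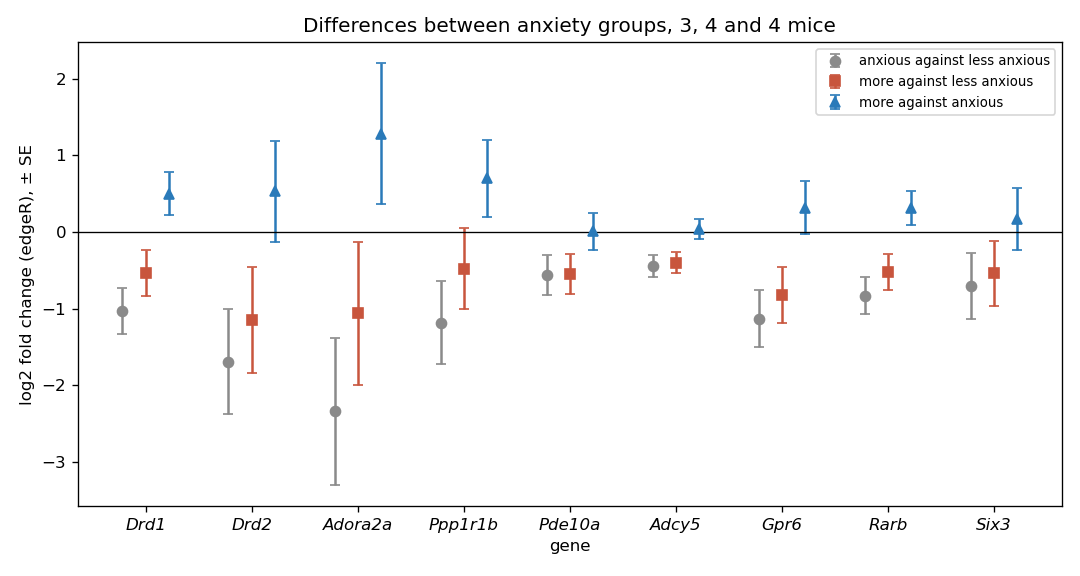
edgeR log2 fold changes with bars of ± 1 SE (vertical axis) of each gene (horizontal axis) for anxious against less anxious, more against less anxious and more anxious against anxious mice (3, 4 and 4 mice). The values against less anxious mice lie below 0 and those of more anxious against anxious mice above 0, and Adora2a has the widest bars.

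The weight of the genes was also read in the first components as recomputed here from the deposited counts, of which PC1 is the covariate above. On PC1, which carried 20.2% of the variance, the sizes of the loadings ranged from above 8.07% of genes for Adcy5 and 8.76% for Drd1 to above 95.4% for Rarb and 99.3% for Adora2a. The recomputed PC2, with 14.7% of the variance, does not order the mice fully by group, since the more anxious mouse 6 scored 0.28 and the anxious mice 1 and 11 scored -4.4 and -2.88, so it is not exactly the component from which the study cut the groups. On it the sizes ranged from above 1.17% of genes for Ppp1r1b to above 86.4% for Drd1. PC1 scores computed without the 9 genes and all genes of the lists had a correlation of 1 with those used.

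Behavior offered a comparison that did not pass through the expression data, and each of the 7 measures was tested in its own fit as a standardized number, with 63 tests over the 9 genes. The fits had 11 mice, except that of the 3-min measure, which had 10 mice and 26651 genes. edgeR called 0 of the 9 with any measure. All genes called were 2 for the percentage of time in the light (0.00742%), 0 each for distance in the light, time on the open arms and total entries (0.0%), and 4, 3 and 6 for the box:zone ratio, the time near a stranger mouse relative to the surrounding zone, at 3, 5 and 10 min (0.015%, 0.0111% and 0.0223%). Before adjustment 1565, 1575 and 1879 genes were under 0.05 for distance in the light, open arms and total entries. DESeq2 called 22, 43 and 38 genes with these measures and 5 with time in the light. It called 165, 43 and 111 with the box:zone ratio at 3, 5 and 10 min, and 0 of the 9 with any measure. Of the gene lists described below, it called Ptpn5 at 3 min (slope -0.24, DESeq2 adjusted p 0.018). It also called Dlx5 at 5 and 10 min (-0.29 and -0.31, DESeq2 adjusted p 0.0391 and 0.0035). Slc17a6 was called at 10 min (0.27, DESeq2 adjusted p 0.049). edgeR called none of these list genes.

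The number of total entries on the EPM, a measure that includes general activity, had the largest number of the 9 genes under 0.05 before adjustment. Entries were 29, 31 and 42 in the less anxious mice 3, 7 and 12, 15, 24, 30 and 28 in the anxious mice 1, 4, 8 and 11, and 6, 36, 22 and 31 in the more anxious mice 2, 6, 9 and 10. All 9 slopes were above 0 (50.3% of all genes), and 4 had an unadjusted p under 0.05 (3.54% of all genes in this direction). Per SD of entries, log2 CPM was higher by 0.33 ± 0.10 (SE) for Rarb, 0.36 ± 0.12 for Drd1, 0.36 ± 0.15 for Gpr6 and 0.51 ± 0.19 for Ppp1r1b, at edgeR adjusted p of 0.594, 0.606, 0.685 and 0.644. Mouse 12 had the most entries and the highest level of each gene. Without it, 0 of the 9 were under 0.05 before adjustment and 8 slopes were above 0, with 0.14 for Rarb, 0.23 for Drd1, 0.11 for Gpr6 and 0.36 for Ppp1r1b.

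With time on the open arms and distance in the light, all 9 slopes were above 0 (49.5% and 49.3% of all genes), and with time in the light 8 of 9 were (48.7%). None of these 27 slopes had an unadjusted p under 0.05. With the box:zone ratio the 9 slopes were below 0 at 3, 5 and 10 min (48.7%, 52.2% and 53.3% of all genes). Six3 was under 0.05 before adjustment at each of them, with slopes of -0.37 ± 0.16, -0.35 ± 0.16 and -0.35 ± 0.16, and so was Adcy5 at 3 min with -0.16 ± 0.07 (3.11%, 3.03% and 3.76% of all genes in this direction). Their edgeR adjusted p-values lay between 0.6 and 0.747. The 3 ratios come from the same session and overlap in time.

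The 9 genes varied together from mouse to mouse. Over 12 mice, the 36 pairs had a median Pearson r of 0.779 on log2 CPM, from 0.477 for Gpr6 with Rarb to 0.936 for Drd2 with Adora2a, and all were above 0. The median Spearman rho was 0.769, from 0.0909 to 0.951. With 2-sided permutation tests of 100000 resamples and Benjamini-Hochberg adjustment over the 36 pairs, 32 pairs had an adjusted p under 0.05 for r and 22 for rho. The smallest p these permutations can give is 1e-05. Without mouse 12, 20 pairs were under 0.05 for r and the median r was 0.663.

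Correlations were high both within and across the striatal classes. In the striatum the dopamine receptors Drd1 and Drd2 mark different neurons. Here they had r = 0.887 (permutation p = 0.00011, adjusted 0.00066) and rho = 0.853 (permutation p = 0.00059, adjusted 0.00303). Without mice 11 and 12, the farthest from the median of Drd1, r was 0.814. Drd2 and Adora2a, which share neurons in the striatum, had r = 0.936 (permutation p = 1e-05, adjusted 0.00036) and rho = 0.909 (permutation p = 0.0001, adjusted 0.00144). Without mice 4 and 12, r was 0.896. The difference between these correlations was not tested. Gpr6 had the lowest mean r with the other 8 genes, 0.631, and Drd2 the highest, 0.832. For Gpr6 with Rarb (permutation p = 0.119, adjusted 0.119; rho = 0.0909, permutation p = 0.78, adjusted 0.78) r was -0.379 without mice 7 and 12, and for Gpr6 with Adcy5 it went from 0.782 (permutation p = 0.00697, adjusted 0.01; rho = 0.427, permutation p = 0.169, adjusted 0.185) to -0.023, so that relation rests on those mice. Over all pairs, r without the 2 farthest mice had a median of 0.671 and ran from -0.379 to 0.906.

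The genes most like the 9 were ranked by their mean r with them over the 12 mice, as a description. The first was Scn4b, a sodium channel subunit enriched in striatal neurons, with a mean r of 0.858 and levels from 3.19 to 89.5 CPM. Rgs9, a regulator of G protein signaling of the striatum, followed with 0.852, then Rasd2 (0.827), Chdh (0.824), Lrrc10b (0.812), Syt6 (0.806), Sh3rf2 (0.801), Cntn2 (0.799), Ephb1 (0.799) and Penk (0.794), the precursor of enkephalin. Without mouse 12 the mean r of Scn4b was 0.756 and that of Rgs9 0.742. The median over all 15892 genes was -0.0275, and 5.25% were above 0.5.

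**Figure D3:**
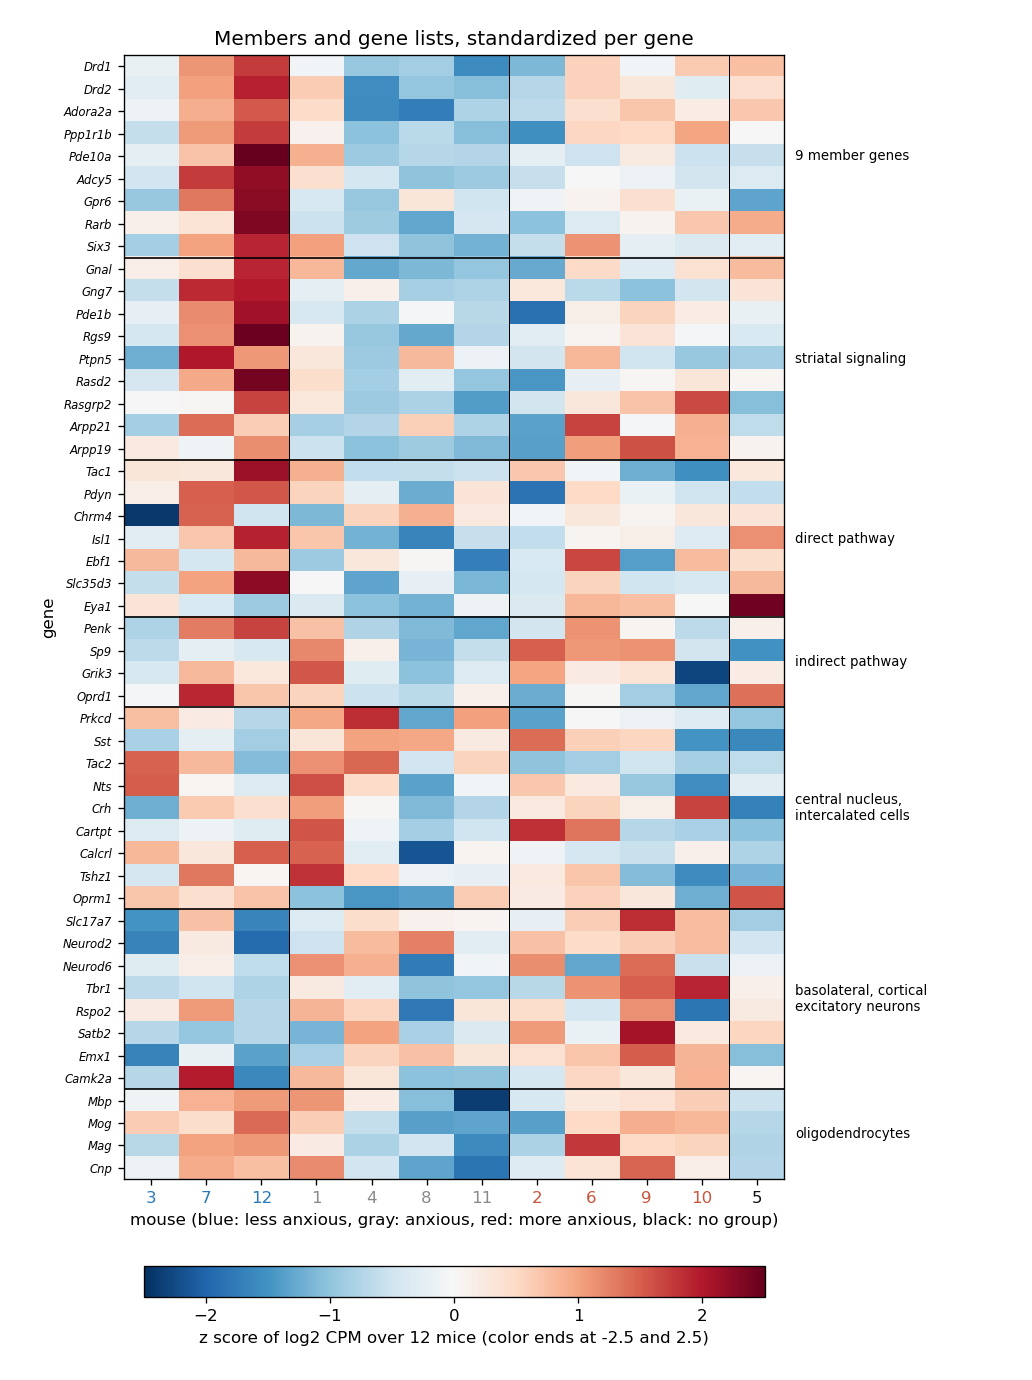
Standardized log2 CPM (color, z score over 12 mice) of the 9 genes and genes of 6 lists (rows) in every mouse (columns, by group, mouse 5 last). The column of mouse 12 is red in the rows of the 9 genes, in most rows of striatal signaling and in each oligodendrocyte row, and not in most rows of central nucleus or basolateral genes.

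Other genes of the dopamine pathway did not share this pattern to the same degree. Of the remaining dopamine receptors, Drd5 was at 1.18 ± 0.287 CPM (SD, n = 12) with a mean r of 0.306 (0.048 without mouse 12), while Drd3 did not exceed 0.443 CPM and Drd4 0.12 CPM. Th, the rate-limiting enzyme of dopamine synthesis, was at 1.88 ± 0.631 CPM, from 1.09 in mouse 11 to 3.21 in mouse 12, with a mean r of 0.399 that was 0.0615 without mouse 12. The 6 genes of synthesis, transport and breakdown at 1 CPM or more had a median mean r of 0.0874 (-0.0316 without mouse 12), with Maoa at 38.0 CPM on average. edgeR called 0 of these 10 genes across the 3 groups, at adjusted p of at least 0.714. Before adjustment 1 was under 0.05, compared with 6.36% of all genes.

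Genes of striatal signaling had a mean r with the 9 well above that of most genes. Of 10 genes, 8 had a mean r over 0.5 and the median was 0.643, or 0.535 without mouse 12. The most abundant were Arpp21, at 445 ± 121 CPM, and Ptpn5, the striatal phosphatase STEP, at 213 ± 45.1 CPM. Their mean r, 0.466 for Arpp21 and 0.497 for Ptpn5, was the lowest of the list. Gnal, the G protein that couples Drd1 and Adora2a to the cyclase, had a mean r of 0.781. Across the 3 groups edgeR called 0 of 10, with 4 under 0.05 before adjustment, compared with 6.36% of all genes. All 10 were lower in anxious than in less anxious mice, as were 49.3% of all genes. Of them, 6 had an unadjusted p under 0.05, compared with 2.25% of all genes in this direction. Mouse 12 had the highest summed level of these 10 genes, 2022 CPM. Rgs9 averaged 38.6 ± 22.8 CPM in less anxious, 16 ± 4.40 CPM in anxious and 21.7 ± 2.36 CPM in more anxious mice. Its edgeR adjusted p for anxious against less anxious mice was 0.987 (log2 fold change -1.26), and over 19 alternatives it ran from 0.0361 to 1.0. It was under 0.05 in 1 of them, without the less anxious mouse 3, where the log2 fold change was -1.63.

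Among the 7 direct-pathway genes the median mean r was 0.504 (0.285 without mouse 12). Pdyn, the precursor of dynorphin, averaged 54.1 ± 21.6 CPM in less anxious, 26.2 ± 10.9 CPM in anxious and 21.9 ± 11.3 CPM in more anxious mice, with a mean r of 0.65, and Tac1, the precursor of substance P, 41.1 ± 13.4, 29.4 ± 6.79 and 27.2 ± 8.05 CPM, with 0.504. Without mouse 12 these were 0.509 for Pdyn and 0.136 for Tac1. The 4 indirect-pathway genes with a row had a median mean r of 0.359 (0.357 without mouse 12), and only Penk, at 0.794, was over 0.5. Penk stood at 405 ± 187, 222 ± 100 and 284 ± 105 CPM in the same groups. Some other pathway genes were not highest in less anxious mice. In the same groups Sp9, of the indirect list, was at 5.59 ± 0.403, 6.49 ± 2.33 and 8.7 ± 2.22 CPM. Chrm4, of the direct list, was at 14.1 ± 8.39, 15.5 ± 3.93 and 15.1 ± 0.822 CPM. By log2 fold change, 2 of the 7 direct-pathway and 1 of the 4 indirect-pathway genes were higher in more than in less anxious mice (50.5% of all genes). Grik3 was at 60.4 ± 12.6 CPM over all mice with a mean r of 0.246. The 8 striatal transcription factors had a median mean r of 0.407 (0.241 without mouse 12), with Meis2 (114 ± 30.4 CPM) at 0.686 and Bcl11b (89.3 ± 7.13 CPM) at 0.0163. edgeR called 0 genes of these 3 lists across the groups, at adjusted p of at least 0.632. Before adjustment 1, 1 and 2 were under 0.05, compared with 6.36% of all genes.

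The central nucleus and intercalated cell genes lay on both sides of 0. Their median mean r was -0.00341, 5 of 9 were below 0 and 0 exceeded 0.5. The highest was Calcrl, the calcitonin receptor-like receptor, at 0.485 (0.281 without mouse 12), and Crh, which encodes corticotropin-releasing hormone, had 0.36. Prkcd, of neurons in the lateral central nucleus, was at 13.3 ± 4.74 CPM with a mean r of -0.181 and was highest in mouse 4, and Tshz1, of the intercalated cells, was at 46.1 ± 8.06 CPM with 0.147. Sst, at 311 ± 94.5 CPM the most abundant of the list, had -0.412. The basolateral and cortical excitatory genes had a median mean r of -0.132, with Slc17a7, the vesicular glutamate transporter, at -0.182 and Camk2a at 0.122. These values rest on mouse 12, where Slc17a7 had its lowest level, 678 CPM, against a mean of 973 ± 200 CPM, and Camk2a its lowest of 1947 CPM. Without it the mean r was 0.232 for Slc17a7 and 0.675 for Camk2a, and the medians of the central nucleus and basolateral lists were 0.0801 and 0.153. edgeR called 0 of 9 and 0 of 8 genes across the groups, with 1 and 4 under 0.05 before adjustment, compared with 6.36% of all genes. Of the 8 basolateral genes, 7 were higher in more than in less anxious mice (50.5% of all genes), 5 of them at an unadjusted p under 0.05 (5.21% of all genes in this direction), and 4 without mouse 12. The smallest edgeR adjusted p of the 8 was 0.181, for the cortical transcription factor Emx1, at 5.91 ± 1.52 CPM in less anxious, 8.75 ± 1.74 CPM in anxious and 10.7 ± 1.67 CPM in more anxious mice. DESeq2 called Emx1 across the groups, and Emx1 and Neurod2 between more and less anxious mice.

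**Figure D4:**
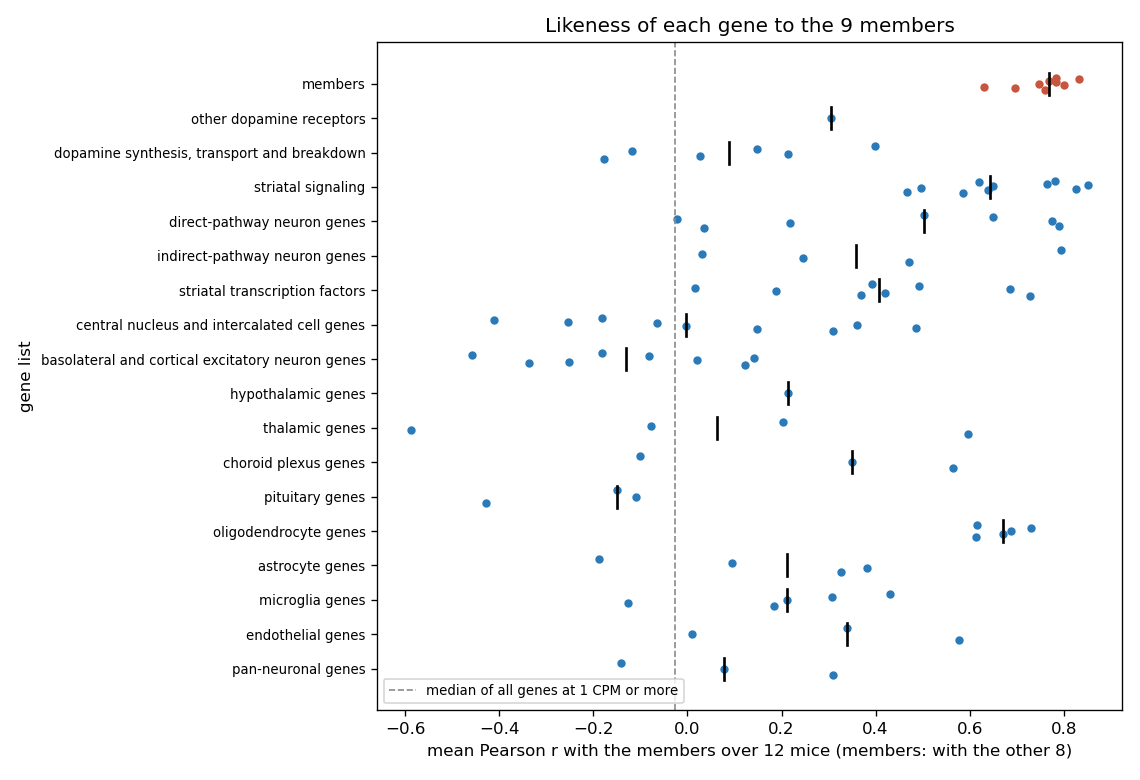
Mean Pearson r of each gene with the 9 genes over 12 mice (horizontal axis, log2 CPM) by gene list (rows), with a bar at the median of each list and a dashed line at the median of all genes. Oligodendrocyte and striatal signaling genes have the highest medians after the 9 genes, 0.671 and 0.643, and central nucleus and basolateral genes have medians of -0.00341 and -0.132.

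Markers of oligodendrocytes, the myelin-forming cells of white matter, moved with the 9 genes. All 5 of 5, Mbp, Mog, Mag and Cnp among them, had a mean r of at least 0.613, and the median of 0.671 was 0.597 without mouse 12. Their summed level ran from 2227 to 2900 CPM in less anxious, 1383 to 2660 CPM in anxious and 1782 to 2437 CPM in more anxious mice, lowest in mouse 11 and highest in mouse 12, and none of the markers was at 0. Mbp was at 1299 ± 269 CPM over 12 mice. The 5 genes were lower in anxious than in less anxious mice, as were 49.3% of all genes. Of them, 2 had an unadjusted p under 0.05, compared with 2.25% of all genes in this direction. Across the groups edgeR called 0 of 5. The part of this oligodendrocyte signal in the differences between mice and groups was not tested.

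The summed level of the 9 genes themselves ran from 369 to 831 CPM in less anxious, 317 to 471 CPM in anxious and 326 to 476 CPM in more anxious mice. Markers of neighbouring tissue and of other cell types were read in the same way. The hypothalamic genes summed to between 0.98 and 23.8 CPM, with Hcrt at no more than 0.224 CPM and Pmch at 0.39 CPM. The most abundant were Avp (mean 4.17 CPM, median 2.46 CPM) and Oxt (mean 0.55 CPM). Both were highest in the more anxious mouse 6, Avp at 21.3 CPM and Oxt at 1.77 CPM. The pituitary genes summed to at most 3.68 CPM in less anxious and 1.63 CPM in more anxious mice but reached 56.7 CPM in the anxious mouse 4, with Prl at 32.1 CPM and Gh at 20 CPM there. Pomc and Cga were highest in another anxious mouse, mouse 11, at 7.16 and 2.78 CPM. The choroid plexus genes summed to between 5.32 and 15.9 CPM, led by Kl (5.33 CPM) and Ttr (2.52 CPM). Thalamic genes had a median mean r of 0.063 (0.00518 without mouse 12), with Slc17a6 at 76.6 CPM and Rora at 31.2 CPM. Medians were 0.211 for astrocytes (Slc1a2 at 1684 CPM, Gfap at 127 CPM), 0.212 (0.385 without mouse 12) for microglia (Csf1r at 72.4 CPM, Cx3cr1 at 42.7 CPM), 0.34 for endothelial genes (Flt1 at 31.3 CPM, Pecam1 at 26.0 CPM) and 0.0774 (0.166 without mouse 12) for pan-neuronal genes (Snap25 at 1903 CPM, Syt1 at 1252 CPM). With all grouped mice, edgeR called 0 genes of any of these lists across the 3 groups, whereas DESeq2 called Prl, Gh and the choroid plexus channel Kcnj13. Without the anxious mouse 1, edgeR called Cga across the groups (adjusted p 0.0126) and between more anxious and anxious mice (adjusted p 0.0353). Without the more anxious mouse 10, it called Kcnj13 between more and less anxious mice (log2 fold change -4.54, adjusted p 0.0391). Kcnj13 was at 4.20 ± 0.955 CPM in less anxious, 0.775 ± 0.588 CPM in anxious and 0.459 ± 0.496 CPM in more anxious mice, with an edgeR adjusted p of 0.504 and a mean r of 0.349 (0.0694 without mouse 12). The other genes of its list did not share this pattern. In the same groups Ttr was at 2.66 ± 2.53, 3.14 ± 1.17 and 2.13 ± 1.54 CPM. Kl was at 6.53 ± 2.0, 4.75 ± 0.194 and 5.36 ± 1.04 CPM, and Folr1 did not exceed 0.651 CPM. Ttr was lowest in mouse 12, where Kcnj13 was highest.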

How the data were processed

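RNA of bilateral amygdala from 12 mice was sequenced with single-end reads. Reads were trimmed with cutadapt where needed and aligned to mm10 with STAR, and alignment quality was checked. The authors quantified transcripts with Salmon and brought the estimates to gene level through tximport. The values deposited by the authors are estimated counts (expected counts), not normalized, of 47729 genes (0 values were not whole). Tool versions, the annotation release and the strand setting are not given in the sources used here. Groups and behavior measures came from the labels, and nothing there names a batch.

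From these counts, CPM used TMM factors, and log2 CPM a prior count of 2. Tests used edgeR 4.0.16 (quasi-likelihood, robust) in R 4.3.3 for 26963 genes with at least 10 counts in total over 11 mice (26651 genes and 10 mice for the 3-min measure, which mouse 4 lacks), with PC1 as covariate for the groups and none for behavior, and Benjamini-Hochberg adjustment over all genes with a threshold of 0.05. DESeq2 1.42.0 was the alternative test. Python 3.11.15, numpy 2.4.6, pandas 2.3.3, scipy 1.17.1 and matplotlib 3.10.9 were used for the rest. Procedures were tested on simulated data. The p-values for groups and behavior set a difference or slope against the spread between single mice. Those for pairs of genes come from permuting the mice. Totals ran from 31745630 to 45142355 per mouse.

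The 9 genes and 17 gene lists were chosen with earlier results of these data known. Of 95 list genes 94 had a row, and Gpr52 was not analysed here. Some genes that the rule below would name are not reported here. Genes were named by rule: the 9 in full, Drd3, Drd4, Drd5, Th, Tac1, Pdyn, Penk, Rgs9, Prkcd, Tshz1 and Slc17a7, the 2 of each list with the highest mean CPM and any called across the groups, and the 10 other genes with the highest mean r. Further list genes (Gnal, Dlx5, Hcrt, Pmch, Mog, Mag and Cnp, Calcrl, Crh, Emx1, Neurod2, Kcnj13, Sp9, Chrm4, Folr1, Pomc and Cga) were named after their values were seen. Alternatives changed size factors, the filter, robust fitting, covariates, group coding, mouse 5 and each left-out mouse. Counts of directions under these alternatives, and gene lists and fold changes without mouse 12, were added after seeing the data.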

Additional observations from a re-analysis of the deposited data

Results flagged for a closer look

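Single mice stood apart from their group in 3 of the 18 sets of 4 mice examined by Dixon's criterion on CPM (9 genes in the anxious and in the more anxious group). Chance gives about 1 in 20 for separate sets. The 9 genes varied together between mice, so the 18 sets are not separate and their count cannot be weighed against that rate. Drd2 in the anxious mouse 1 was at 5.72 CPM, while the other anxious mice lay between 1.16 and 1.80 CPM. Pde10a in the same mouse was at 90.8 CPM, above 55.8 to 58.7 CPM in the others. Six3 in the more anxious mouse 6 was at 13.8 CPM, above 7.0 to 8.03 CPM in the others of its group. The less anxious group, with 3 mice, was too small for this criterion.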

How the results depend on the processing

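No paired analysis was possible because the labels give no replicate numbers and each mouse is a separate animal. edgeR called 0 of the 9 genes under every alternative run with it, for the groups and for behavior, and DESeq2, run once with the main model, called 0 of them. In all 9 genes the difference of more from less anxious mice had the same sign under the 19 alternatives, with a smallest adjusted p of 0.177, for Adcy5, but the sizes rested on mouse 12, without which Rarb went from -0.52 to -0.13, Six3 from -0.54 to -0.11 and Gpr6 from -0.82 to -0.21 on the log2 scale. Counts over all genes moved. Across the 3 groups (2) they were 9 with no minimum count, 0 with filterByExpr, 1 without the robust option, 0 without PC1, 22 with the group order as a number, 187 with DESeq2, and 0 to 4 with a mouse left out. For more against less anxious mice (12) they were 2 with total counts, 25 with no minimum, 0 with filterByExpr, 2 without the robust option, 3 without PC1, 304 with DESeq2, and 0 to 24 with a mouse left out. For anxious against less anxious mice (1) they were 0 with filterByExpr and without PC1, 10 with DESeq2, and 0 to 2 with a mouse left out. For more anxious against anxious mice (0) they were 48 with DESeq2 and 0 to 1 with a mouse left out. Over the 7 behavior measures (15 in sum) they were 33 with no minimum, 1 with filterByExpr, 4 with PC1 as covariate, 427 with DESeq2, and 5 to 43 with a mouse left out. Correlated pairs (32) numbered 20 to 36 with a mouse left out, 20 without mouse 12 and 36 without mouse 5, and the median r 0.663 to 0.804. With total counts as the scale, 8 of the 9 genes were higher in more anxious than in anxious mice, and 6 to 9 were with a mouse left out. The cause of these shifts was not tested. Genes below about 5 CPM, such as Gpr6 and Drd2, rest on as few as 61 and 44 counts in a mouse.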
